A study of Mus musculus with 6 samples.

Results

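The outer layer of the Wnt pathway was examined in primary mouse osteoblasts (PMOs): the secreted ligands, the R-spondins, the cell surface receptors, the secreted antagonists, and a few genes of the nuclear response. The genes were chosen by name and class, and no measured threshold was part of the choice. They were 48 genes of the 20659 that could be named on the array: 19 Wnt ligands, 3 R-spondins, 13 receptors (the 10 Frizzled genes, Lrp5, Lrp6 and Ror2), 10 secreted antagonists (Dkk1, Dkk2, Dkk3, Sfrp1, Sfrp2, Sfrp4, Sfrp5, Frzb, Wif1 and Sost), and Axin2, Lef1 and Tcf7. All 48 had a probe, 58 probes in all. Of these genes, 40 stood well above background on 2 or more of the 6 arrays and were tested, among 23086 genes and unnamed transcripts that passed the same filter.

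Wnt ligands are secreted lipid-bearing glycoproteins that bind Frizzled receptors together with the co-receptors Lrp5 or Lrp6. In the canonical branch this binding spares β-catenin from degradation, and β-catenin then acts with TCF/LEF factors on target genes such as Axin2, while some ligands, Wnt5a among them, also signal through Ror2 without β-catenin. R-spondins keep Frizzled receptors on the cell surface, Dickkopf proteins and sclerostin (Sost) bind the Lrp co-receptors, and the secreted Frizzled-related proteins and Wif1 bind the ligands themselves. In bone, canonical Wnt signaling favors the formation of osteoblasts, and antagonists made by osteoblasts and osteocytes restrain it.

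PMOs from the calvariae of CD1 mice aged 2 to 5 days were used in every group. The undifferentiated PMOs (arrays C1 and C2) were grown to confluence in MEM with serum. The differentiated PMOs (D1 and D2) were kept in differentiation medium for 30 days after confluence, and the cabozantinib-treated PMOs (X1 and X2) were kept in the same medium with cabozantinib (XL184), an inhibitor of the MET and VEGFR2 receptor tyrosine kinases, for 30 days. No group carried a genetic change. Nothing in the labels states that the 2 cultures of a group came from separate animals or preparations, so the p-values measure the spread between these cultures, which may be technical. Cultures of this kind hold a mixture of cells, and with RNA of a whole culture, fewer cells of a type cannot be told apart from less RNA per cell.

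Signals are given on the log2 scale, relative to the 75th percentile of the probe signals of the same array. A value of 0 is that percentile and each unit is a doubling, and levels of different genes are not compared because each probe has its own brightness. The 75th percentile lay between 625 and 1773 in arbitrary intensity units, and 58.8% to 72.9% of the spots were well above background. The file headers give both cabozantinib arrays a scan time of their own and the other 4 arrays a shared one, so scan and cabozantinib cannot be told apart. Differentiated and undifferentiated arrays shared a scan. Of 9 osteoblast markers, 7 were above background on all 6 arrays, including Alpl, Col1a1 and Ibsp, while Runx2 was so on 3 arrays and Sp7 on 4. With differentiation 4 of the 9 were called higher and 0 lower: Ibsp (log2 fold change 2.20), Bglap2 (5.06), Dmp1 (3.99) and Phex (6.38). Spp1 (-3.67, adjusted p = 0.0546), Runx2 (-1.92, adjusted p = 0.0689) and Sp7 (-1.85, adjusted p = 0.314) had values below 0 and did not pass, and neither did Alpl (0.50) or Col1a1 (0.24). The summed linear signal of 9 macrophage markers was 26.9 to 48.6 times the percentile in undifferentiated, 279 to 373 times in differentiated and 250 to 301 times in cabozantinib-treated PMOs. The other lists of cell type markers are given beside the results they moved with.

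Detection differed between the classes. Of the 19 ligands, 12 were tested and 10 were above background on all 6 arrays. Wnt2, Wnt2b, Wnt3, Wnt3a, Wnt7a and Wnt8a were above background on no array, as was Lef1, a TCF/LEF factor, and Wnt7b was so on C2 alone. All 3 R-spondins were above background on all 6 arrays. All 13 receptors were tested, 9 of them above background on every array, and all 10 antagonists were tested, 7 of them above background on every array. Axin2 and Tcf7 were tested. In total 30 of the 48 genes were above background on all 6 arrays.

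The upstream sequences of Fzd9, Dkk1 and Sfrp2 are shown because these 3 genes, a receptor and a pair of antagonists, were among those with a higher signal after differentiation and stand in the RefSeq promoter table (build GRCm38.p6), which held 33 of the 48 genes in 40 windows. Each is the 250 bases before the start, 5′ to 3′ on the gene's strand, in lower case. Capitals mark matches to a TCF/LEF motif (CTTTGAA or CTTTGAT) or to a RUNX motif (TGTGGT), each searched on both strands. RUNX is the family of Runx2, a transcription factor of the osteoblast lineage. The intervals are chr5:135251048-135251297 on the minus strand for Fzd9, chr19:30549497-30549746 on the minus strand for Dkk1, and chr3:83766071-83766320 on the plus strand for Sfrp2.
Fzd9: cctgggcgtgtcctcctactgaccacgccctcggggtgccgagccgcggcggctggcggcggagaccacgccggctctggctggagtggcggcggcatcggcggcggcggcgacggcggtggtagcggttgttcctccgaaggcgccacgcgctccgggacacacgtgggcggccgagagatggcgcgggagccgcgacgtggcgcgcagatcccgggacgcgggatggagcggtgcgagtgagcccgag
Dkk1: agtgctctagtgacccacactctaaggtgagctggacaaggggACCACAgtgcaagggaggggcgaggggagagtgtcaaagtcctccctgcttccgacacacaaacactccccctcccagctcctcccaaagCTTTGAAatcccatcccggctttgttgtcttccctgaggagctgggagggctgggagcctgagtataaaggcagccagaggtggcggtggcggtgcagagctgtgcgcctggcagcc
Sfrp2: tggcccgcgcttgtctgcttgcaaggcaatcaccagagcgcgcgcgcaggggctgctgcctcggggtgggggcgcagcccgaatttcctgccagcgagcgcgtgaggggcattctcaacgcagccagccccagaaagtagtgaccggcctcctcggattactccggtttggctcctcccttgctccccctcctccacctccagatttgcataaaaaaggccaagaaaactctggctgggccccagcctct
The Dkk1 stretch held 1 match to each motif, the TCF/LEF match as CTTTGAA and the RUNX match as ACCACA on the printed strand, and the other 2 stretches held none. In windows from 250 bases before to 50 bases after the start, a TCF/LEF match stood in 7.5% of the 40 Wnt gene windows (Wnt5b, Wnt11 and Dkk1) and in 8.65% of all 32851 windows. A RUNX match stood in 5% of the Wnt gene windows (Dkk1 and Sfrp5) and in 16.8% of all windows. The bases printed were 76.4% G or C for Fzd9, 60.8% for Dkk1 and 63.6% for Sfrp2, against a median of 52.4% over all windows. A match of letters is a description and not a binding site.

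The first comparison asked which Wnt genes changed as PMOs differentiated. Among them 10 genes rose, 7 of which were antagonists or R-spondins, and 1 gene, Tcf7, fell. By limma at an adjusted p under 0.05, 11 of the 40 Wnt genes (27.5%) were called, against 13.4% of all genes tested. Of all genes, 7.17% were called higher and 6.25% lower. The median log2 fold change was 0.15 over the Wnt genes and 0.11 over all genes. By class, 5 of 10 antagonists, 2 of 3 R-spondins, 2 of 12 ligands and 1 of 13 receptors were called higher, with class medians of 1.67, 2.22, -0.09 and -0.12. The arrays of the 2 groups did not overlap in 17 Wnt genes that were higher and 13 that were lower, against 25.9% and 19.4% of all genes. The criterion of the study was taken as a change over 2-fold at an unadjusted p under 0.05. It was met by 18 Wnt genes, 13 higher and 5 lower, and by 22.7% of all genes, 11.9% higher and 10.8% lower.

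Among the antagonists, Sfrp4, a secreted Frizzled-related protein that binds Wnt ligands, had the largest change of the 40 genes. Its signals were -0.99 and -0.83 in undifferentiated PMOs, 4.78 and 4.91 in differentiated PMOs, and 2.86 and 2.95 with cabozantinib. The 3 groups were well apart, with the differentiated pair highest. Sfrp4 was 54-fold higher in differentiated than in undifferentiated PMOs (log2 fold change 5.75 ± 0.32, SE, n = 2 per group, adjusted p = 0.000387). Sfrp2, of the same family, read 0.67 and 1.50 in undifferentiated, 3.58 and 3.91 in differentiated and 4.78 and 4.77 in cabozantinib-treated PMOs. Its order of groups was not that of Sfrp4, since the cabozantinib pair was highest. The rise with differentiation was 6.32-fold (2.66 ± 0.39, adjusted p = 0.00546). Frzb, also called Sfrp3, read -3.60 and -3.10, then -1.10 and -1.35, and with cabozantinib -0.67 and -0.85. It rose 4.37-fold with differentiation (2.13 ± 0.35, adjusted p = 0.0086).

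Dkk1 blocks the Lrp co-receptors and is a known brake on bone formation. Its signals were -5.56 and -6.04 in undifferentiated PMOs, where only C2 was well above background, -2.67 and -2.13 in differentiated PMOs, and -1.28 and -1.57 with cabozantinib. The undifferentiated arrays were the lowest and the cabozantinib arrays the highest. Dkk1 rose 10.6-fold with differentiation (3.40 ± 0.38, adjusted p = 0.00211). Dkk2, its relative, read -3.53 and -4.30 in undifferentiated, -1.87 and -0.39 in differentiated and -2.33 and -2.93 in cabozantinib-treated PMOs. The differentiated arrays were the highest and lay far from each other, and the rise was 6.89-fold (2.78 ± 0.56, adjusted p = 0.0176). Dkk3, a member of the family that does not act as a plain Lrp antagonist, read 7.03 and 5.88, 6.80 and 7.39, and 6.95 and 7.43 in the 3 groups in that order. These ranges overlapped and the difference with differentiation was 0.64 ± 0.48 (adjusted p = 0.498).

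The other antagonists did not pass the test. Sfrp5 lay higher in differentiated PMOs without overlap (difference 1.22 ± 0.41, adjusted p = 0.0988). Sost, the sclerostin gene of mature osteocytes, differed by -0.52 ± 0.41 (adjusted p = 0.524). Sost is 1 of 6 osteocyte markers, of which Dmp1, Mepe and Phex rose, and Pdpn (-0.68) and Fgf23 (-0.15), like Sost, did not pass. Wif1 differed by -0.48 ± 0.42 (adjusted p = 0.579). Sfrp1 varied within each group, with -4.28 and -1.96 in undifferentiated, -7.11 and -4.81 in differentiated and -3.41 and -7.21 in cabozantinib-treated PMOs, and its standard error was 1.35.

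All 3 R-spondins lay higher after differentiation without overlap, and 2 passed the test. Rspo3 read 2.67 and 2.98 in undifferentiated, 5.45 and 5.10 in differentiated and 4.88 and 5.10 in cabozantinib-treated PMOs. Both groups kept in differentiation medium lay above the undifferentiated pair, and the rise without cabozantinib was 5.44-fold (2.44 ± 0.35, adjusted p = 0.0047). Rspo1 read -1.77 and -2.66, -0.70 and -0.12, and -0.52 and -0.15 in the same order of groups. It rose 3.51-fold (1.81 ± 0.44, adjusted p = 0.0332). Rspo2 read -1.28 and 0.28, 2.37 and 1.07, and 3.31 and 2.70. The undifferentiated pair was again the lowest, but the spread within pairs was wide and the difference of 2.22 ± 0.64 missed the threshold (adjusted p = 0.0633).

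Of the ligands, Wnt6 and Wnt10a rose. Wnt10a, a canonical ligand, read -1.98 and -2.54 in undifferentiated, 0.52 and 0.16 in differentiated and -0.93 and -0.49 in cabozantinib-treated PMOs, with the cabozantinib pair between the other 2. It was 6.04-fold higher with differentiation (2.59 ± 0.38, adjusted p = 0.0053). Wnt6 read -2.69 and -3.78, -0.43 and -0.16, and -1.30 and -0.86, in the same order from group to group. Its rise was 7.66-fold (2.94 ± 0.45, adjusted p = 0.00615). Wnt10b, a close relative of Wnt10a, read -1.33 and -2.04, -2.87 and -2.25, and -3.31 and -3.03. It did not move with Wnt10a, and its difference was -0.87 ± 0.41 (adjusted p = 0.239).

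Ligands that did not pass included Wnt4, with -0.69 and -1.44 in undifferentiated, -2.58 and -2.12 in differentiated and -3.89 and -3.60 in cabozantinib-treated PMOs. Its groups descended without overlap, and the difference with differentiation was -1.29 ± 0.40 (adjusted p = 0.0814). Wnt9a read 1.68 and 0.92, -0.14 and 0.26, and 0.10 and 0.42, with the undifferentiated pair highest (-1.24 ± 0.40, adjusted p = 0.0904). Wnt5b read 1.51 and 0.48, 0.60 and 1.60, and 1.67 and 1.99. Its first 2 groups overlapped. The remaining ligands tested differed by -0.47 to 1.24, with adjusted p from 0.133 to 0.792.

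Fzd9 was the receptor that rose. It read -0.24 and -1.59 in undifferentiated, 2.78 and 4.08 in differentiated and 2.11 and 2.69 in cabozantinib-treated PMOs. All 4 arrays of cells kept in differentiation medium lay above both undifferentiated arrays, and the rise was 20.3-fold (4.34 ± 0.60, adjusted p = 0.0044). Fzd1 read 3.98 and 4.66, 4.75 and 4.93, and 4.96 and 4.87, a difference of 0.52 ± 0.37 with differentiation. The co-receptors Lrp5 and Lrp6 differed by -0.12 ± 0.41 and -0.53 ± 0.35. Ror2, the receptor of non-canonical Wnt5a signaling, read 1.85 and 2.07, 1.39 and 1.58, and 1.46 and 1.72, a difference of -0.48 ± 0.34. None of these 4 passed the test. Fzd2, Fzd3, Fzd4, Fzd5, Fzd8 and Fzd10 differed by -0.74 to 0.49, with adjusted p from 0.443 to 0.905. Fzd2 had a second probe, which read -2.87 and -1.32 in undifferentiated and -3.40 and -4.40 in differentiated PMOs. By that probe Fzd2 differed by -1.80 ± 0.76 (adjusted p = 0.187), opposite in sign to the 0.49 of the first.

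Fzd6 and Fzd7 were lower in differentiated PMOs but varied between cultures. Fzd7 read -2.33 and 0.27 in undifferentiated, -3.25 and -4.11 in differentiated and -1.30 and -3.57 in cabozantinib-treated PMOs. Fzd6 read -3.25 and -1.57, -5.03 and -5.22, and -4.51 and -6.68. The differences with differentiation were -2.65 ± 0.98 for Fzd7 and -2.71 ± 0.79 for Fzd6 (adjusted p = 0.135 and 0.0643). For Fzd6, Fzd7 and Sfrp1, C2 lay more than 2-fold above C1 and X1 more than 2-fold above X2. Such a pattern was seen in 3 of the 40 Wnt genes (7.5%) and in 2.36% of all genes. Fzd7 and Sfrp1 were picked out after their values were seen, so these shares describe the pattern and do not test it.

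Tcf7 encodes TCF1, a nuclear partner of β-catenin. It read -2.96 and -2.14 in undifferentiated, -4.52 and -5.44 in differentiated and -3.50 and -4.10 in cabozantinib-treated PMOs, with D2 not well above background. The differentiated pair was lowest, and Tcf7 fell with differentiation (log2 fold change -2.43 ± 0.48, adjusted p = 0.0162). Axin2, a direct target of β-catenin and an inhibitor of the pathway, read -2.14 and -1.63, -2.88 and -2.09, and -3.18 and -3.27. Its differentiated and undifferentiated ranges overlapped (-0.60 ± 0.40, adjusted p = 0.432).

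**Figure D1:**
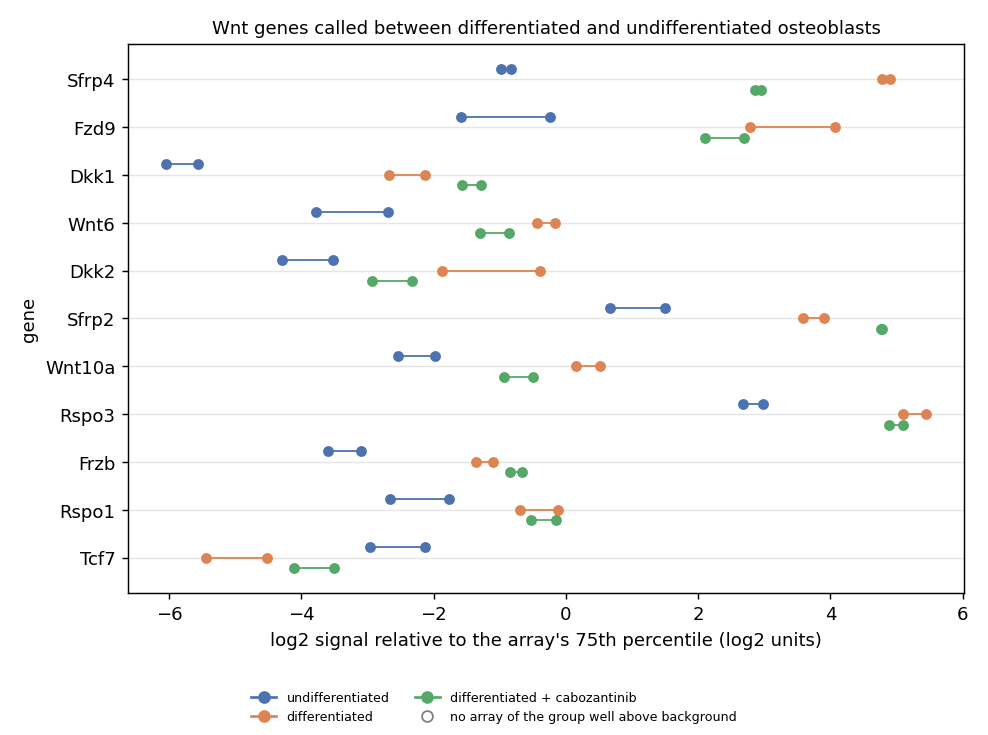
Log2 signal, relative to the 75th percentile of each array, of the 11 Wnt genes called between differentiated and undifferentiated PMOs. Each point is 1 array, a line joins the 2 arrays of a group, and in 10 of the 11 genes the differentiated pair lies above the undifferentiated pair, with Sfrp4 farthest apart at 4.78 and 4.91 against -0.99 and -0.83.

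Sfrp4, Fzd9, Sfrp2, Wnt10a and Rspo3 were called in all 17 other limma settings run, and Tcf7, Dkk2 and Rspo1 were among those lost when D2 was left out, which left 8 genes called. Markers of other cells moved in the same comparison: 6 of 9 macrophage markers, 4 of 6 osteoclast markers tested and 3 of 5 adipocyte markers tested were called higher. The summed osteoclast signal was 34.8 to 55.9 times the percentile in undifferentiated and 134 to 190 times in differentiated PMOs, with Calcr above background on no array. The adipocyte sum was 1.5 to 2 times the percentile in undifferentiated and 23.7 to 49.8 times in differentiated PMOs, with Lep above background on no array. Of the other lists, 2 of 6 chondrocyte and 1 of 4 endothelial markers tested were called higher, 2 of 4 neutrophil and 1 of 5 skeletal muscle markers lower, and 0 of 3 erythroid markers either way. The part of these cells in the changes of the Wnt genes was not tested.

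The second comparison, the question of the study, set cabozantinib-treated against differentiated PMOs. Wnt16 was the 1 gene called higher, by a small margin, and Wnt8b, Fzd10, Sfrp4, Wif1, Fzd8, Wnt5a and Wnt9b were called lower. These 8 genes were 20% of the 40 tested, against 12.8% of all genes, of which 0.81% were called higher and 12% lower. The balance of higher and lower calls was thus uneven over the whole array, and 67.8% of all genes had a value below 0. The median log2 fold change over all genes was -0.29, and -0.08 after quantile normalization. Over the Wnt genes it was -0.32, and 0.04 after quantile normalization, so its direction turned with the scaling.

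None of the 8 calls held under every setting. With limma after quantile normalization, or on the values the authors deposited, 0 of the 40 Wnt genes were called, with 14 at an unadjusted p under 0.05 in each case. Over all genes the counts at that unadjusted level were 5564 and 5565. Leaving out any of D1, D2, X1 or X2 also left 0 calls, with 8 to 14 genes at an unadjusted p under 0.05. The directions of all 8 held under quantile normalization. The criterion of the study was met by 14 Wnt genes, 3 higher and 11 lower, and by 26.5% of all genes, 3.32% higher and 23.2% lower.

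Sfrp4, whose signals are given above, fell with cabozantinib to 0.26 of its level in differentiated PMOs (log2 fold change -1.94 ± 0.32, adjusted p = 0.0231). Relative to the median gene its log2 fold change was -1.66. After quantile normalization the value was -1.84 (adjusted p = 0.0512). Its signal with cabozantinib stayed above that of undifferentiated PMOs on both arrays. The 3 adipocyte markers Cfd, Fabp4 and Cidec were also lower with cabozantinib, and the summed adipocyte signal was 8.07 to 8.2 times the percentile, against 23.7 to 49.8 in differentiated PMOs. Of 9 osteoblast markers, Ibsp was called higher (1.50, adjusted p = 0.0416, and 0.0514 after quantile normalization) and 0 were called lower. Of the macrophage and osteoclast markers, 0 of 9 and 0 of 6 were called. The endothelial marker Cdh5 was called lower (-2.40, adjusted p = 0.0231), and of the skeletal muscle markers Acta1 was called higher (1.87, adjusted p = 0.0254) and Myod1 lower (-1.64, adjusted p = 0.0311), while 0 chondrocyte, erythroid or neutrophil markers were called. Their part in the result was not tested.

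Wnt5a, the main non-canonical ligand, read -1.85 and -2.09 in undifferentiated, -1.72 and -1.41 in differentiated and -3.27 and -3.39 in cabozantinib-treated PMOs. The cabozantinib pair lay below all 4 other arrays, and the log2 fold change was -1.77 ± 0.34 (adjusted p = 0.0265). Wnt9b, a canonical ligand, read -2.74 and -3.34, -2.98 and -2.56, and -4.26 and -4.23. It showed the same arrangement, with a change of -1.48 ± 0.37 (adjusted p = 0.0452). After quantile normalization Wnt5a changed by -1.43 (adjusted p = 0.0582) and Wnt9b by -0.91 (adjusted p = 0.107).

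The other genes called lower were well above background on at most 1 of the cabozantinib arrays. Wnt8b read -3.95 and -4.79 in undifferentiated and -2.67 and -3.59 in differentiated PMOs, and -5.80 and -5.76 with cabozantinib, where neither array was well above background. Under the scaling to the percentile it was at least 5.09-fold lower than in differentiated PMOs (adjusted p = 0.0231). Such a bound compares the bright group with, on each dim array, the lowest signal well above background or the probe's own value, whichever is higher. Each bound holds for that scaling only, and the change of Wnt8b after quantile normalization, given below, was smaller than its bound. Wif1 read -4.45 and -4.33, -5.12 and -4.63, and -6.32 and -7.24, with neither cabozantinib array well above background, and was at least 1.52-fold lower (adjusted p = 0.0332). Fzd8 read -3.59 and -4.05, -3.79 and -3.50, and -5.06 and -5.82, with 1 cabozantinib array well above background (-1.80 ± 0.40, adjusted p = 0.0342). Fzd10 read -5.74 and -5.61, -5.97 and -5.12, and -7.74 and -7.70. It was well above background on 1 array of each of the first 2 groups and on no cabozantinib array, so its fold is not given (adjusted p = 0.0243). With quantile normalization Wnt8b changed by -1.89 (adjusted p = 0.0853), Wif1 by -0.94 (adjusted p = 0.201) and Fzd8 by -1.04 (adjusted p = 0.127). The adjusted p of Fzd10 was then 0.059.

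**Figure D2:**
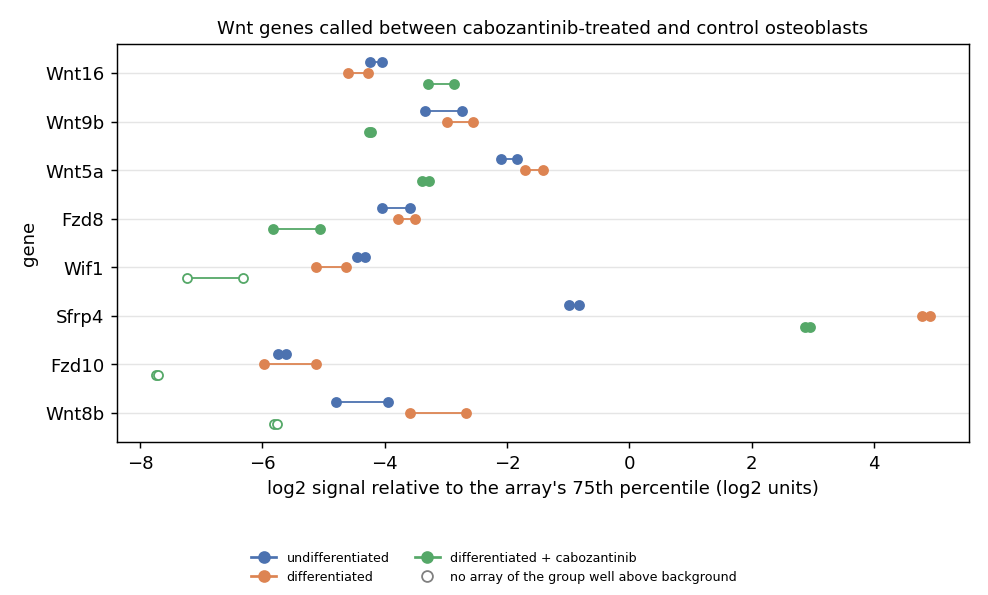
Log2 signal, relative to the 75th percentile of each array, of the 8 Wnt genes called between cabozantinib-treated and differentiated PMOs, with 1 point for each array. Open symbols mark a group in which no array was well above background, which holds for Fzd10, Wif1 and Wnt8b with cabozantinib, and Wnt16 is the gene whose cabozantinib pair lies to the right of the others.

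Dim probes as a whole were lower on the cabozantinib arrays. When all genes were put into 4 bins of equal size by mean signal, the median difference between cabozantinib-treated and differentiated PMOs was -1.23 in the dimmest bin, -0.58 in the next, and -0.05 and -0.12 in the brighter bins. Quantile normalization brought the medians of the first 2 bins to -0.43 and -0.16. The dimmest bin held 9 Wnt genes, 8 of them lower with cabozantinib, with a median of -1.51. In the brightest bin 2 of 5 Wnt genes were lower, Sfrp4 being 1 of them. Of the 7 genes called lower, Wnt8b, Fzd8, Fzd10 and Wif1 were in the dimmest bin, Wnt5a and Wnt9b in the next and Sfrp4 in the brightest.

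**Figure D3:**
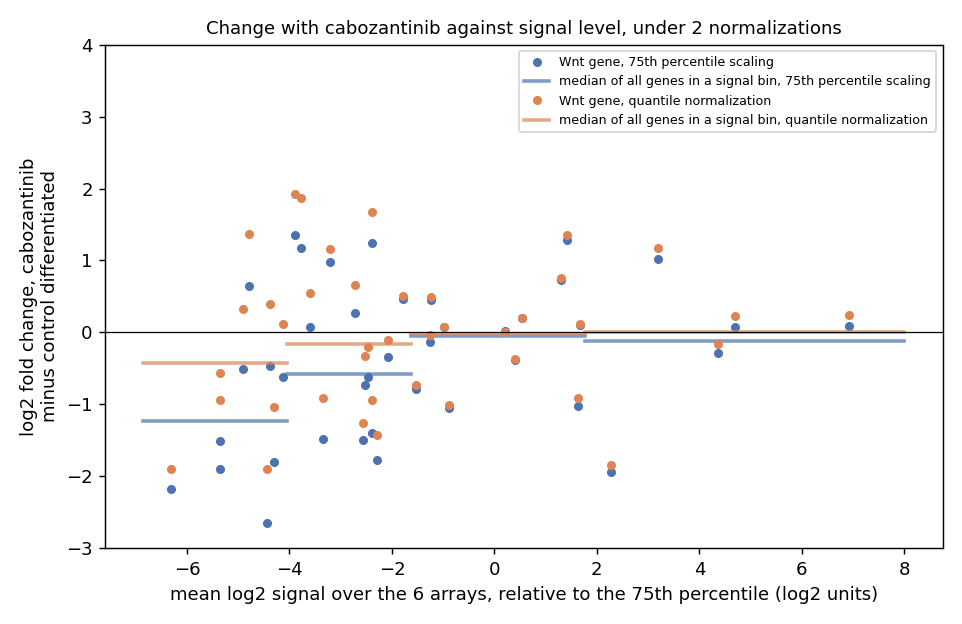
Log2 fold change between cabozantinib-treated and differentiated PMOs against mean log2 signal, for the 40 Wnt genes under scaling to the 75th percentile and under quantile normalization. Horizontal lines are medians of all genes in each bin of signal, and under the first scaling the line of the dimmest bin lies at -1.23, with 8 of 9 Wnt genes there below 0.

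Wnt16, a ligand known to limit the loss of cortical bone, had 2 tested probes with the same RefSeq accession, and they moved in opposite directions. The first, slightly the brighter on average, read -4.24 and -4.04 in undifferentiated, -4.27 and -4.60 in differentiated and -2.87 and -3.29 in cabozantinib-treated PMOs. The cabozantinib pair was highest, 2.56-fold above the differentiated pair (1.36 ± 0.35, adjusted p = 0.0482). The second read -3.18 and -3.65, -3.31 and -3.72, and -5.32 and -5.09, and it was not well above background on either cabozantinib array. By this probe Wnt16 with cabozantinib stood at 0.31 of its level in differentiated PMOs (log2 fold change -1.69 ± 0.36, adjusted p = 0.0317). The mean of the probes gave -0.17 under the scaling to the percentile. After quantile normalization the first probe changed by 1.93 (adjusted p = 0.063) and the second by -0.95 (adjusted p = 0.14). The probes still moved in opposite directions, but the first then had the larger change, so the sign of their mean depends on the scaling. Which transcripts each probe detects was not tested.

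**Figure D4:**
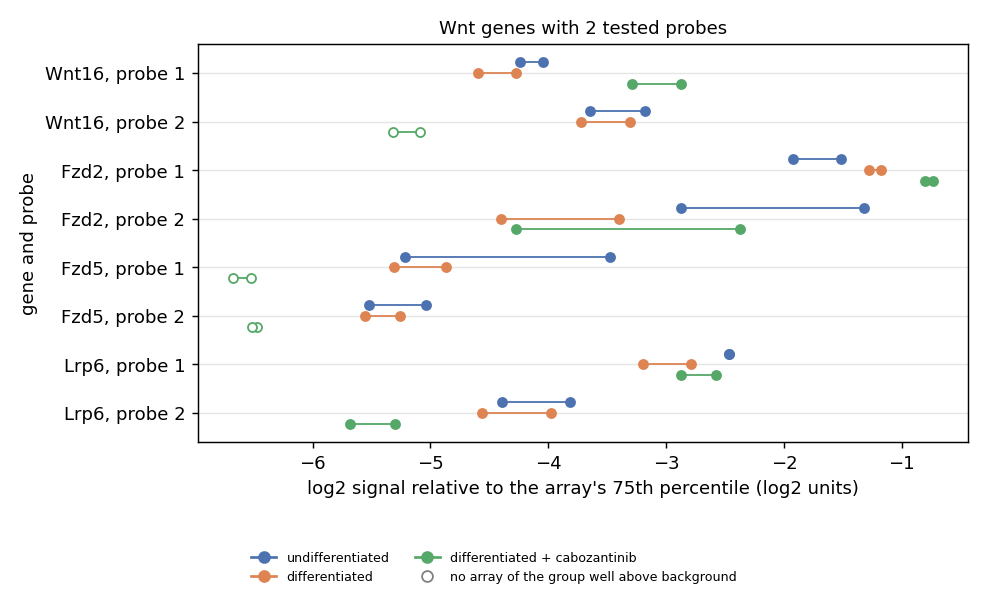
Log2 signal of both tested probes of Wnt16, Fzd2, Fzd5 and Lrp6 on the 6 arrays, relative to the 75th percentile of each array. With cabozantinib the first Wnt16 probe lies at -2.87 and -3.29, above the other groups, while the second lies at -5.32 and -5.09, below them.

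The other 3 genes with a second tested probe were Fzd2, Fzd5 and Lrp6. Between cabozantinib-treated and differentiated PMOs the probes of Fzd2 differed by 0.46 and 0.58, and those of Fzd5 by -1.51 and -1.09, with no cabozantinib array well above background at either Fzd5 probe. The Lrp6 probes differed by 0.27 and -1.22, in opposite directions. None of these 6 values passed the test (adjusted p from 0.0864 to 0.718).

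Genes that differed without passing included the antagonists Dkk1 and Sfrp2. Dkk1 lay higher with cabozantinib on both arrays (0.98 ± 0.38, adjusted p = 0.137), as did Sfrp2 (1.03 ± 0.39, adjusted p = 0.134). Tcf7 likewise lay higher (1.17 ± 0.48, adjusted p = 0.156). Dkk2 lay lower (-1.50 ± 0.56, adjusted p = 0.127), as did Wnt4 (-1.40 ± 0.40, adjusted p = 0.0621) and Wnt10a (-1.05 ± 0.38, adjusted p = 0.116). No R-spondin was called, and the values were 0.07 for Rspo1, 1.29 for Rspo2 and -0.28 for Rspo3. Fzd9 differed by -1.03 ± 0.60 (adjusted p = 0.33). In all, the cabozantinib and differentiated arrays did not overlap in 8 Wnt genes that were higher and 18 that were lower, while over all genes tested such separation was seen in 13.4% and 44.2%.

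**Figure D5:**
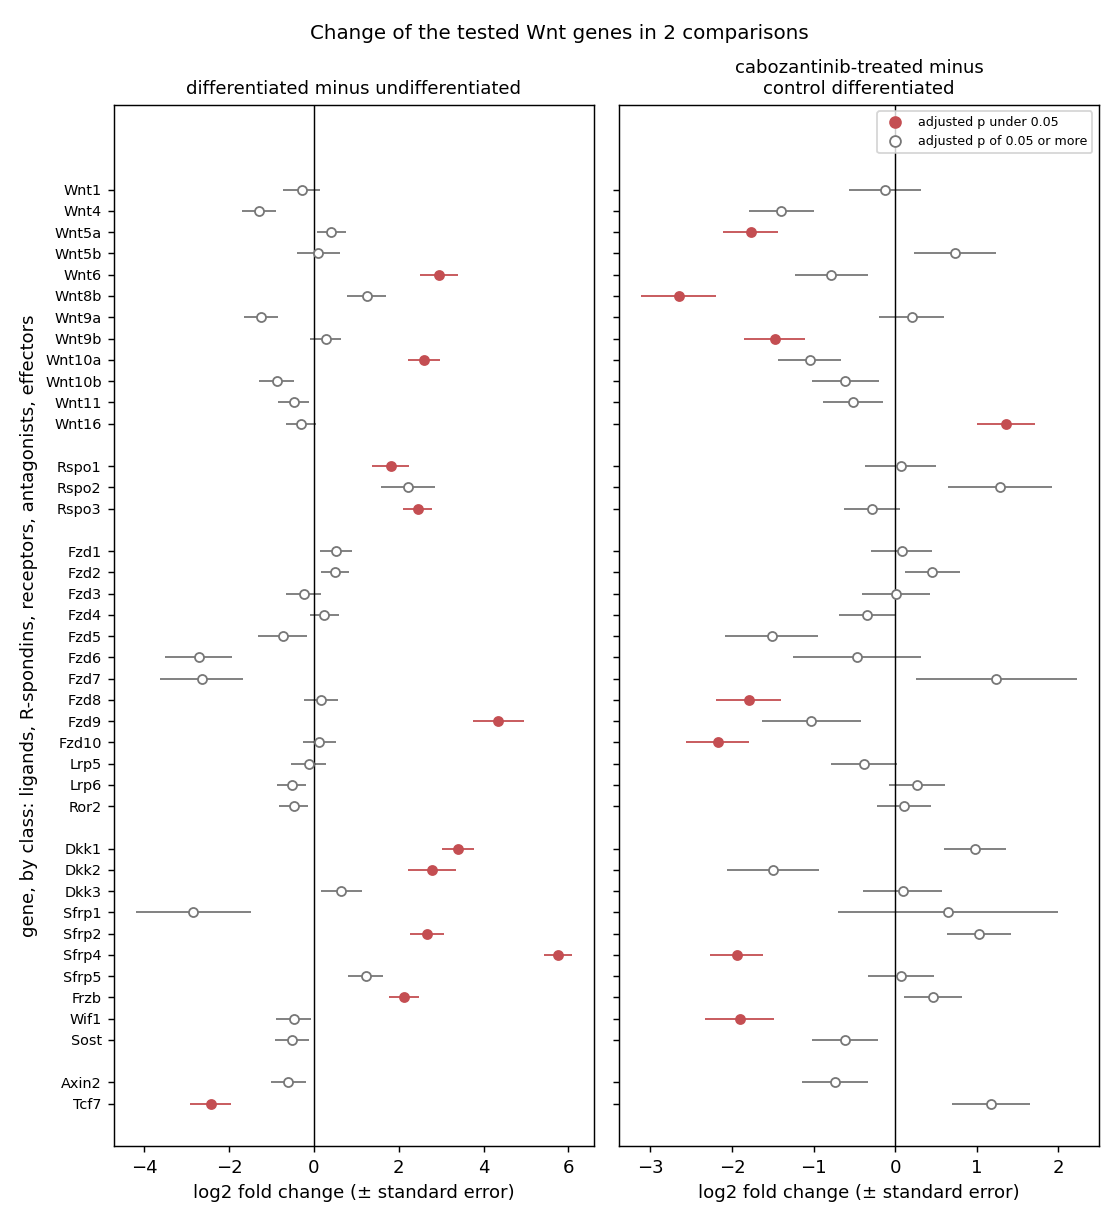
Log2 fold change with its standard error for the 40 tested Wnt genes, grouped by class, between differentiated and undifferentiated PMOs (left) and between cabozantinib-treated and differentiated PMOs (right). Filled symbols have an adjusted p under 0.05, and they include 5 antagonists above 0 on the left, and Sfrp4 and Wif1 below 0 on the right.

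The third comparison set cabozantinib-treated against undifferentiated PMOs, and shares arrays with both others. Here 19 of the 40 Wnt genes (47.5%) were called, against 24.1% of all genes, of which 6.77% were called higher and 17.4% lower. The genes called higher were all 3 R-spondins, the antagonists Dkk1, Sfrp4, Sfrp2 and Frzb, the ligands Wnt6 and Wnt10a, and Fzd9. Dkk1 was 20.8-fold higher (4.38 ± 0.38, adjusted p = 0.00129), Sfrp4 14-fold (3.81 ± 0.32, adjusted p = 0.00124) and Sfrp2 12.9-fold (3.69 ± 0.39, adjusted p = 0.00247). Rspo2 was 11.3-fold higher (3.50 ± 0.64, adjusted p = 0.012). The others rose by 1.54 to 3.32 on the log2 scale. The arrays did not overlap in 16 Wnt genes that were higher and 17 that were lower, against 19.7% and 43.6% of all genes. The criterion of the study was met by 26 Wnt genes, 12 higher and 14 lower, and by 35.6% of all genes, 9.18% higher and 26.5% lower.

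The 9 genes called lower were Wnt4, Wnt5a, Wnt10b, Fzd5, Fzd6, Fzd8, Fzd10, Wif1 and Axin2. Fzd5, Fzd6, Fzd8, Fzd10 and Wif1 were in the dimmest bin of signal, and the others of the 9 in the next. Over all genes the median difference in this comparison was -1.24 and -0.76 in these bins, against -0.06 and 0.05 in the brighter bins. After quantile normalization the medians of the dim bins were -0.39 and -0.23. Wnt4, which acts in the canonical and the non-canonical branch, was lowest with cabozantinib on both arrays (-2.68 ± 0.40, adjusted p = 0.00677). Fzd5 read -3.48 and -5.22 in undifferentiated, -5.31 and -4.87 in differentiated and -6.68 and -6.53 in cabozantinib-treated PMOs. It was at least 2.18-fold lower (adjusted p = 0.03), and by its second probe at least 1.15-fold lower (adjusted p = 0.0447). The first Lrp6 probe, which stood for the gene, was not called (-0.26 ± 0.35, adjusted p = 0.636). The second Lrp6 probe was lower (-1.39 ± 0.40, adjusted p = 0.0436). Wif1 was at least 2.12-fold lower (adjusted p = 0.0108). Axin2, the target gene, was just within the threshold (-1.34 ± 0.40, adjusted p = 0.0499). After quantile normalization 14 Wnt genes were called, 12 higher and 2 lower, the lower ones being Wnt4 and Fzd10, against 3420 of all genes. Without X2, 7 genes were called, and without X1, 12. Of 9 osteoblast markers, 4 were called higher and 0 lower. Markers of other cells called higher in this comparison were 5 of 9 macrophage, 3 of 6 osteoclast, 3 of 5 adipocyte, 2 of 6 chondrocyte and 1 of 4 endothelial markers tested. Those called lower were 1 osteoclast, 1 adipocyte, 2 of 4 neutrophil and 2 of 5 skeletal muscle markers. Their part in the result was not tested.

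Of 69 further genes of the pathway, 60 were tested. Between differentiated and undifferentiated PMOs, 2 were called higher and 5 lower, or 11.7% of the 60 against 13.4% of all genes. Lgr5, an R-spondin receptor, read 1.50 and 1.19 in undifferentiated, 5.65 and 5.91 in differentiated and 5.66 and 6.13 in cabozantinib-treated PMOs. Both differentiated conditions lay far above the start (4.43 ± 0.36, adjusted p = 0.00074). Camk2b, a calcium-dependent kinase subunit, rose by 2.79. The genes called lower were Axin1 and Dvl2, of the cytoplasmic relay, and the known targets Ccnd1, Myc and Ccn4. Ccnd1, the gene of the cell cycle regulator cyclin D1, read 2.78 and 3.08, -0.37 and -0.22, and 1.81 and 1.30. It fell with differentiation (-3.22 ± 0.36, adjusted p = 0.0021), and its cabozantinib pair lay between the other groups. Myc, another growth gene, fell by 2.79 on the log2 scale and Ccn4 by 1.57. Neither Axin1 nor Dvl2 was above background on the differentiated arrays, and they were at least 3.73-fold and at least 5.45-fold lower.

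Between cabozantinib-treated and differentiated PMOs, 2 of these 60 genes were called, against 12.8% of all genes. Ccnd1 was higher with cabozantinib (1.85 ± 0.36, adjusted p = 0.0268) and Camk2a was lower (-1.69 ± 0.41, adjusted p = 0.0412). After quantile normalization their adjusted p was 0.0668 and 0.0586. Ctnnb1, which encodes β-catenin itself, differed by 0.06 ± 0.49. Tnfrsf11b, the gene of osteoprotegerin and a known Wnt target in osteoblasts, differed by 0.74 (adjusted p = 0.656). Against undifferentiated PMOs, cabozantinib-treated PMOs had 5 of the 60 higher (Lgr5, Btrc, Celsr1, Camk2b and Nkd1) and 4 lower (Ryk, Camk2a, Ccnd1 and Myc), or 15% against 24.1% of all genes.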

How the data were processed

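Cy3-labeled RNA of 6 cultures of primary mouse osteoblasts was measured on 1-color Agilent arrays, in 3 groups of 2 set by the sample labels. Per the file headers, the intensities are gProcessedSignal of Feature Extraction 11.0.1.1, background-subtracted and not scaled between arrays. The authors also deposited log2 values of 30439 probes, whose processing is not given in the sources used here and which were used as an alternative. These values gave the same called Wnt genes as quantile normalization, 12, 0 and 14 in the 3 comparisons, so these 2 settings lie close to each other. The fold changes and p-values printed in the study were not used.

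Outlier spots were dropped from the 43020 spots that are not controls. The log2 of each spot was taken, the log2 values of replicate spots were averaged per probe, and values were set relative to the 75th percentile of their array. Probes were named through RefSeq accessions, which named 69.1% of them. Probes well above background on at least 2 arrays (27236) were kept. All 6 arrays entered a limma fit (version 3.58.1, R 4.3.3) with condition as its term and 3 residual degrees of freedom. Benjamini-Hochberg adjustment ran over all probes tested. Each gene stood at the kept probe of highest mean signal and was called at an adjusted p under 0.05. The number of arrays limits the precision.

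The alternatives were other normalizations, filters, variance models, probe choices and call rules, a replicate term, the methods' t-test (two-tailed, paired) and an unpaired t-test on the same values, and each array left out. The normexp correction (offset 50) was run on median signals, since the deposited intensities used here include no mean signal. Genes with array values printed are those called in any comparison, Wnt16, Dkk1, Sfrp2 and Sfrp4, the 2 of each class with the highest mean signal, and Fzd7 and Sfrp1, which were added after their values were seen. The Wnt genes, the pathway lists and the markers were chosen with earlier results of these data known. The fit was also run on simulated data, and no result given here rests on that run. Figures were drawn with matplotlib 3.10.9.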

Additional observations from a re-analysis of the deposited data

How the results depend on the processing

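Of the 40 Wnt genes tested, 11, 8 and 19 were called for differentiation, for cabozantinib against differentiated PMOs, and for cabozantinib against undifferentiated PMOs. The cause of the differences below was not tested. With cabozantinib against differentiated PMOs, 0 were called by limma after quantile normalization (14 at an unadjusted p under 0.05), on the authors' values (14), without a filter on dim probes (14), with only probes above background on all 6 arrays (8), and with normexp correction (4). Over all genes the count of 2948 became 113 after quantile normalization, 0 with normexp, on the authors' values and without a filter, and 1 with the strict filter. At an unadjusted p under 0.05 the counts over all genes were 5564, 5565, 7164, 3746 and 1382, in the order of the Wnt counts. Without a filter 48 Wnt genes were tested, and with the strict filter 30. With normexp correction 5 Wnt genes were called for differentiation and 5 for cabozantinib against undifferentiated PMOs, against 1165 and 688 of all genes. For the latter comparison 11 were called without a filter and 12 with the strict filter, against 3128 and 2971 of all genes. The criterion of the study, over 2-fold at an unadjusted p under 0.05, gave 18 Wnt genes for differentiation and 14 for cabozantinib against differentiated PMOs. After quantile normalization, a setting chosen after seeing the data, it gave 17 and 10. Over all genes it was met by 5243 and 6118, and after quantile normalization by 5202 and 3798. By the methods' t-test at that criterion 4, 3 and 6 Wnt genes passed in the 3 comparisons, against 857, 2328 and 1252 of all genes. After Benjamini-Hochberg adjustment 0 passed in any of them, by the methods' t-test (5, 3 and 7 at an unadjusted p under 0.05) or unpaired (8, 11 and 16). The unadjusted counts over all genes were 1290, 3846 and 1787 by the methods' t-test, and 3383, 4897 and 5286 unpaired.

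Leaving out each array in turn gave 8 to 15 calls for differentiation, 0 to 10 for cabozantinib against differentiated PMOs and 7 to 19 for cabozantinib against undifferentiated PMOs. A lone array was then assumed to vary like the other groups. Without either undifferentiated array, 10 genes were called for cabozantinib against differentiated PMOs.

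With the replicate number as a block, 10, 1 (Wnt8b) and 14 Wnt genes were called, against 2241, 616 and 3091 of all genes. The labels do not say that the numbers pair the samples, and pairing was not established, since the differences between replicates correlated at -0.51 between undifferentiated and differentiated arrays, -0.53 between undifferentiated and cabozantinib arrays and 0.26 between differentiated and cabozantinib arrays. When the 2 undifferentiated arrays swapped numbers, which was chosen after seeing the data, 18, 15 and 29 Wnt genes were called. The counts over all genes rose as well, to 6027, 7064 and 10304. A scan block was not run, because the cabozantinib arrays alone shared a scan. Wnt16 turned direction with the probe used. Under the scaling to the percentile, Wnt16 against differentiated PMOs was -0.17 as the mean of its probes and -1.69 at the probe with the largest change. Against undifferentiated PMOs it was -1.79 at that probe. The sign of the mean against differentiated PMOs depends on the scaling, as described above. The sign of Fzd2, which was not called, also turned with the probe for differentiation (0.49 and -1.80). Signals near background limit Wnt8b, Wif1, Fzd5, Fzd8 and Fzd10.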
